A study of Mus musculus with 4 samples.

Results

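The machinery of granule release was examined as 10 genes, selected by symbol from the 41079 genes of the deposited count table and followed through all 4 lung libraries. The set held the SNAP-family members Snap25 and Snap23, the syntaxins Stx3, Stx4a and Stx11, the vesicle SNAREs Vamp7 and Vamp8, their partners Stxbp2 and Unc13d, and the Rab effector Rph3a. All 10 were found in the table. In the OVA-induced WT library all 10 had counts, whereas Snap25 and Rph3a had 0 counts in the OVA-induced Rab44-KO library. None of the other 8 genes differed by more than 2-fold in any of the 4 comparisons. Snap25 and Rph3a were among genes already singled out for the OVA-induced comparison, so the 0 counts described here were known when the set was chosen.

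SNARE proteins drive the fusion of secretory granules with the plasma membrane. A vesicle SNARE on the granule (an R-SNARE, such as Vamp8) zips together with a syntaxin and a SNAP-family protein on the target membrane, and Sec1/Munc18 proteins such as Stxbp2 and Munc13 proteins such as Unc13d prepare and guide this assembly. Snap23, Stx3, Stx4a, Stx11, Vamp7, Vamp8, Stxbp2 and Unc13d serve granule release in many hematopoietic and epithelial cells, and loss of STX11, STXBP2 or UNC13D in humans impairs cytotoxic granule release and causes familial hemophagocytic lymphohistiocytosis. Snap25 and Rph3a (rabphilin, which binds Rab3 and Rab27) are best known from neurons and neuroendocrine cells. Rab44, the gene deleted in this study, encodes a large Rab GTPase found in granulated immune cells.

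Lung RNA was sequenced as 4 libraries, 1 for each combination of genotype (WT or Rab44-KO) and condition (normal or OVA-induced). The Rab44-KO mice were made by CRISPR/Cas9 editing on a C57BL/6 background, so that all their cells carry the edit, and the animals were female littermates aged 8 to 14 weeks. OVA-induced mice of both genotypes were sensitized with 100 μg ovalbumin (OVA) and alum, given intraperitoneally on days 0, 7 and 14, were challenged intranasally between days 17 and 20 with 100 μg OVA in a volume of 50 μL, and had their lungs taken on day 21. Normal mice are given as untreated in the labels, whose protocol also names a PBS challenge, and how many mice contributed to a library is not stated. The comparisons address whether loss of Rab44 altered gene expression in normal and in OVA-induced lungs.

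Total counts ranged from 18112901 to 19910236 per library. Counts were divided by the library size in a TMM-scaled form (CPM), and the log2 fold change (log2FC) was taken between 2 libraries when the higher had at least 10 counts. Values in brackets after a log2FC are exact 95% Clopper-Pearson intervals, which cover counting error only. With 1 library per group no difference has a replicate check, each comparison is between libraries, and no p-value was computed. Levels of different genes were compared only as TPM, the transcript abundance scaled by gene length. In whole lung, fewer cells of a type and less RNA per cell cannot be told apart.

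Rab44 itself had 251 (normal) and 810 (OVA-induced) counts in WT and 1 and 0 in Rab44-KO lungs, so the libraries matched their genotype labels. Markers of alveolar, club, ciliated and endothelial cells were detected in every library, as the lung label requires. The OVA-induced libraries also differed in cell type markers. The summed level of 7 goblet cell genes was 2071 CPM in WT and 66.9 CPM in Rab44-KO, that of 8 type 2 macrophage genes was 8780 and 1461 CPM, and that of 9 eosinophil genes was 215 and 134 CPM. Of the 7 eosinophil genes compared, 5 were more than 2-fold lower in Rab44-KO, against 7.34% of all genes, with a median log2FC of -1.23. Ear1 went the other way, with 258 counts in WT and 436 in Rab44-KO. Epx had 1 count in OVA-induced WT and 0 in the other libraries. T cell genes (8) summed to 143 and 64.3 CPM, with 6 more than 2-fold lower against 7.34% of all genes. B cell genes (6) summed to 393 and 250 CPM. Heart muscle genes (8) went the other way, from 320 CPM in WT to 747 in Rab44-KO. Of these, 5 were more than 2-fold higher, where 15.7% of all genes were beyond 2-fold in either direction. Neutrophil genes (10) summed to 593 and 724 CPM in the same libraries, with no gene at 0. The part of these marker shifts in the values given here was not tested.

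Because Snap25 and Snap23 are related in sequence, it was examined whether reads could be shared between them. Over the aligned coding bases they were 69.6% identical, and the longest identical run was 13 bases. The most similar stretch of 60 bases, shown because it is where a short read would be hardest to assign, had 51 identical and 9 different bases. It covers bases 144 to 203 of the Snap25 coding sequence (transcript Snap25-201) and bases 129 to 188 of that of Snap23 (Snap23-203), read 5′ to 3′ from GENCODE M21 on GRCm38, with the differing bases in capitals.
Snap25: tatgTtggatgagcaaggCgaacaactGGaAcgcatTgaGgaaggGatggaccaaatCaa
Snap23: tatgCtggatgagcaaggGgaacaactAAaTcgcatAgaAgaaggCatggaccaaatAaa
No window of 150 bases, the read length, in the transcripts of 9 of the 10 genes occurred in a transcript of another gene (the transcript of Vamp7 was not analysed here). The syntaxins were less alike, with coding identities of 62.2% for Stx3 and Stx4a and 64.0% for Stx4a and Stx11, and a lower value for Stx3 and Stx11. Some genes overlap others on the genome. Snap25 overlaps Gm14053 on the opposite strand, and Rph3a overlaps Gm42656 on the same strand. Stx4a and Vamp7 each overlap another gene on the opposite strand. The strand setting of the counting is not stated, so reads in these overlaps are uncertain.

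The number of genes beyond 2-fold was read against the same count over all genes. In normal lungs, 1 of 9 genes with sufficient counts (Snap25) was more than 2-fold lower in Rab44-KO than in WT, where 4.77% of all 18718 genes compared were beyond 2-fold. Under OVA-induced conditions, 2 of 10 (Snap25 and Rph3a) were lower in Rab44-KO, against 15.7% of 19259 genes beyond 2-fold and 7.34% lower. Between normal and OVA-induced WT lungs the same 2 genes were higher, against 14.2% of 19023 genes beyond 2-fold and 8.99% higher. In Rab44-KO lungs, 0 of the 8 genes that could be compared between OVA-induced and normal conditions passed 2-fold, against 10.3% of 19073 genes. Only the genes with the fewest reads crossed this line.

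Levels within the set spanned a wide range (plot of CPM by library). Vamp8 had the highest TPM in every library, with 904 (normal) and 796 (OVA-induced) in WT and 692 and 659 in Rab44-KO lungs. Between 99.3% and 99.6% of the genes detected in a library lay below it. Stxbp2, Snap23 and Stx4a followed at 38.3 to 62.8 TPM, and Unc13d and Vamp7 reached up to 37.3 and 30.1 TPM. Stx3 had 13.3 to 20.4 TPM and Stx11 had 11.4 to 16.1 TPM. Snap25 and Rph3a were at or below 2.50 TPM in all libraries. The order of the 10 genes was nearly constant. Stxbp2 and Snap23 exchanged places in the OVA-induced Rab44-KO library, where Snap23 stood at 62.8 and Stxbp2 at 58.2 TPM and their counting intervals overlapped. Vamp7 and Unc13d exchanged places in the normal Rab44-KO library, where Vamp7 stood higher at 29.1 TPM. In normal WT lungs the intervals of Stxbp2 and Snap23, of Snap23 and Stx4a, and of Unc13d and Vamp7 overlapped, so these neighbours were not ordered beyond counting error. The same held for Stxbp2 and Snap23 in normal Rab44-KO lungs, and for Snap23 and Stx4a, Unc13d and Vamp7, and Stx3 and Stx11 in OVA-induced WT lungs.

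**Figure D1:**
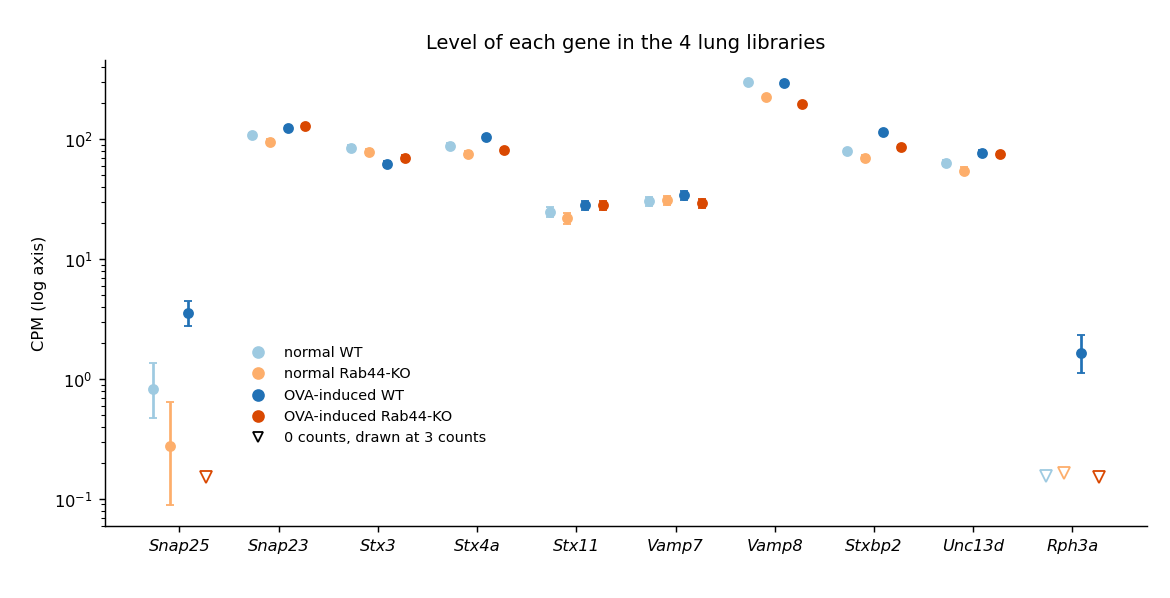
Level of each of the 10 genes in CPM (log axis) in the 4 lung libraries, 1 point per library with its exact 95% Poisson interval, and open triangles for 0 counts drawn at 3 counts. CPM is not scaled by gene length, so each gene is read across libraries. The other 8 genes keep similar levels across libraries, whereas Snap25 and Rph3a are each highest in OVA-induced WT and at 0 counts in OVA-induced Rab44-KO lungs.

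Snap25 (chr2:136713453-136782428 on GRCm38, plus strand) encodes the SNAP-family SNARE of nerve terminals. WT lungs held 16 (normal) and 69 (OVA-induced) counts, or 0.833 and 3.56 CPM, and Rab44-KO lungs held 5 and 0 counts, or 0.274 and 0 CPM. The OVA-induced WT library stood highest, and the counting intervals of the other libraries did not reach its lower limit of 2.77 CPM. OVA-induced WT lungs had 4.25-fold more Snap25 than normal WT lungs, a log2FC of 2.09 (1.30 to 2.98). Under OVA-induced conditions Snap25 was at least 23.2-fold lower in Rab44-KO than in WT, with the 0 set to a floor of 3 counts. That bound leaves out the counting error of the 69 counts, and the exact interval of the log2FC ended at -4.20. Without OVA, Rab44-KO stood below WT by a log2FC of -1.58 (-3.41 to -0.09), which rests on 5 counts against 16. Neither Rab44-KO library reached the count minimum, so no OVA response was computed in that genotype. The interval of the difference between the OVA responses lay below -1.87, that is, the response in Rab44-KO was at most 0.273 times that in WT.

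Snap23 is the widely expressed relative of Snap25 and takes the same place in the SNARE complex in mast cells, platelets and epithelium. WT lungs had 2080 (normal) and 2399 (OVA-induced) counts of it, and Rab44-KO lungs 1746 and 2503. The OVA-induced libraries were both above the normal ones and differed little from each other. Rab44-KO over WT gave a log2FC of -0.18 (-0.27 to -0.09) in normal lungs and 0.05 (-0.03 to 0.13) under OVA-induced conditions, and the latter became 0.38 with TPM and -0.079 when the trend of log2FC with gene length was removed. In this comparison TPM raised the log2FC of well-counted genes by a median of 0.33 and put the median of all genes at 0.29, so TPM values below are to be read against that shift. The OVA response was 0.19 (0.11 to 0.28) in WT and 0.42 (0.34 to 0.51) in Rab44-KO.

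Among the neuronal-type genes of the set, Rph3a (chr5:120940499-121010092, minus strand) encodes rabphilin, an effector that links Rab3 and Rab27 on vesicles to SNAREs. Both normal libraries and the OVA-induced Rab44-KO library had 0 counts of it, and OVA-induced WT had 32 (1.65 CPM, Poisson interval 1.13 to 2.33). It was detected in a single library. Against a floor of 3 counts, OVA-induced WT was at least 10.6-fold above normal WT and OVA-induced Rab44-KO at least 10.7-fold below OVA-induced WT. These bounds leave out the counting error of the 32 counts, and the exact intervals of the log2FC ended at 3.02 and -3.04. The floor corresponds to 0.154 to 0.164 CPM, depending on the library.

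Markers of the cells best known for Snap25 and Rph3a were examined beside these values. All 23 nerve and neuroendocrine genes were detected in normal Rab44-KO and in OVA-induced WT lungs, and Nefm was at 0 in each of the other libraries. Their summed level was 131 (normal) and 134 (OVA-induced) CPM in WT and 114 and 117 CPM in Rab44-KO lungs. The sum was thus slightly lower in both Rab44-KO libraries. In the OVA-induced WT and Rab44-KO sums, Stmn2 made up 57.4 and 59.3 CPM and Gap43 27.0 and 14.5 CPM. The sum thus mostly reflects few of the 23 genes. Under OVA-induced conditions 6 of the 19 genes compared were more than 2-fold lower and 2 more than 2-fold higher in Rab44-KO, where 7.34% of all genes were lower and 15.7% beyond 2-fold in either direction. The median log2FC of these 19 genes was -0.63, and that of all genes was -0.024. In the normal comparison none of 15 passed 2-fold. The part of these genes in the Snap25 and Rph3a values was not tested.

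The syntaxins are the target-membrane SNAREs. Stx3, found on apical membranes and on granules, had 1629 (normal) and 1208 (OVA-induced) counts in WT and 1431 and 1361 in Rab44-KO lungs. It was highest in normal WT, and it was lower in the OVA-induced than in the normal library of each genotype. Its OVA response was -0.44 (-0.55 to -0.34) in WT and -0.17 (-0.28 to -0.060) in Rab44-KO lungs. The difference between these responses was 0.28 (0.12 to 0.43). Rab44-KO over WT gave -0.11 (-0.22 to -0.010) in normal and 0.16 (0.050 to 0.28) in OVA-induced lungs, but the OVA-induced value was 0.49 with TPM and -0.19 with the trend with gene length removed.

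Stx4a, the plasma membrane syntaxin of mast cells and many other cells, had 1698 (normal) and 2022 (OVA-induced) counts in WT and 1379 and 1586 in Rab44-KO lungs. Both Rab44-KO libraries lay below the WT library of the same condition. The log2FC was -0.23 (-0.33 to -0.12) in normal and -0.36 (-0.46 to -0.26) in OVA-induced lungs, and with TPM the latter was -0.033. Its OVA response was 0.24 (0.15 to 0.33) in WT and 0.11 (0.0015 to 0.21) in Rab44-KO, and the interval of their difference (-0.27 to 0.0084) included 0.

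Stx11, the syntaxin of cytotoxic lymphocytes, had 474 (normal) and 548 (OVA-induced) counts in WT and 400 and 550 in Rab44-KO lungs. The OVA-induced libraries were nearly equal, and both were above the normal ones. Its OVA response was 0.20 (0.017 to 0.38) in WT and 0.36 (0.18 to 0.55) in Rab44-KO. Rab44-KO against WT gave -0.17 (-0.37 to 0.023) in normal and -0.0043 (-0.18 to 0.17) in OVA-induced lungs, and both intervals include 0. With TPM the OVA-induced value was 0.32, a move about as large as the shift of all genes. NK and cytotoxic T cell genes (10) summed to 72.6 (normal) and 102 (OVA-induced) CPM in WT and 68.3 and 55.9 CPM in Rab44-KO lungs, and none was at 0. Their part in the Stx11 values was not tested.

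Of the vesicle SNAREs, Vamp8 (endobrevin, chr6:72385223-72390703, minus strand) sits on the granules of mast cells, platelets and exocrine cells. WT lungs held 5736 (normal) and 5752 (OVA-induced) counts and Rab44-KO lungs 4101 and 3824. Both Rab44-KO libraries lay well below both WT libraries, which were nearly equal. In CPM, Vamp8 in Rab44-KO stood at 0.752 times the WT level in normal lungs, a log2FC of -0.41 (-0.47 to -0.35), and at 0.660 times under OVA-induced conditions, a log2FC of -0.60 (-0.66 to -0.54). In CPM these were the lowest log2FC of the 8 widely expressed genes, although with the trend with gene length removed Vamp8 was not the lowest under OVA-induced conditions. The normal value stayed between -0.42 and -0.37 under all scalings tried. The OVA-induced value was -0.27 with TPM and -0.084 with the trend with gene length removed, and the move with TPM was about that of all genes. In that comparison 7 housekeeping genes had a median log2FC of -0.64, with 6 intervals wholly below 0 (33.8% of all genes), while in normal lungs their median was near 0. Their part in the lower OVA-induced values of Vamp8, Stxbp2 and Stx4a was not tested. Its OVA response was -0.0085 (-0.061 to 0.045) in WT and -0.20 (-0.26 to -0.13) in Rab44-KO, and the latter was 0.022 with the length trend removed. Mast cell and basophil genes (10, none at 0) summed to 411 (normal) and 393 (OVA-induced) CPM in WT and 445 and 556 CPM in Rab44-KO lungs. Under OVA-induced conditions Kit (158 and 232 CPM), Gata2 (98.9 and 224 CPM) and Mcpt4 (1 and 8 counts) were higher in Rab44-KO than in WT. The other genes of the list were lower there. Of the 9 compared, 4 were more than 2-fold lower and 1 higher in Rab44-KO, with a median log2FC of -0.71. Over all genes, 7.34% were lower and 15.7% beyond 2-fold in either direction. Platelet genes (8) summed to 64.9 (normal) and 51.2 (OVA-induced) CPM in WT and 40.2 and 102 CPM in Rab44-KO lungs, and the part of either list in the Vamp8 values was not tested.

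Vamp7 (also known as TI-VAMP), a vesicle SNARE of lysosomes and late endosomes, had 583 (normal) and 659 (OVA-induced) counts in WT and 564 and 572 in Rab44-KO lungs. In normal lungs its difference between genotypes was the closest to 0 of the set, with a log2FC of 0.025 (-0.14 to 0.19). Under OVA-induced conditions it was -0.21 (-0.38 to -0.050), and 0.11 with TPM, again a move of about the shift of all genes. The OVA response was 0.16 (0.0013 to 0.33) in WT and -0.075 (-0.25 to 0.095) in Rab44-KO.

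Stxbp2 (Munc18-2, chr8:3630955-3643644, plus strand) is the Sec1/Munc18 protein that binds Stx3 and Stx11 and guides SNARE assembly in hematopoietic and epithelial cells. WT lungs held 1525 (normal) and 2223 (OVA-induced) counts and Rab44-KO lungs 1272 and 1674. The OVA-induced WT library stood above the other 3. In WT lungs its OVA response of 0.53 (0.44 to 0.63) was the highest of the 8 widely expressed genes. In Rab44-KO lungs the response was 0.30 (0.19 to 0.41), and the difference between the responses was -0.23 (-0.37 to -0.087), or 0.070 with TPM. Rab44-KO over WT gave -0.19 (-0.30 to -0.080) in normal and -0.42 (-0.51 to -0.33) in OVA-induced lungs, and the latter was -0.092 with TPM.

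The promoter windows of Stxbp2 and Vamp8 are shown, since among the 8 widely expressed genes Stxbp2 had the highest OVA response in WT and Vamp8 the lowest CPM-based log2FC between genotypes, to place both findings in sequence. Each runs from 250 bases before to 50 bases after a RefSeq start on GRCm38, 5′ to 3′ on the gene's strand. Motifs were searched on both strands and are in capitals. The Stxbp2 window (chr8:3630859-3631158) held the STAT6 motif TTCNNNNGAA, present in 6.95% of all 32851 RefSeq promoter windows, and the E-box CACGTG, present in 7.15%. These do not overlap each other. Both lie downstream of the RefSeq start of the Stxbp2 gene at 3630960. The window was thus taken at a later start, and much of it lies within the gene. The Vamp8 window (chr6:72390618-72390917) held neither motif, nor any other searched.
Stxbp2: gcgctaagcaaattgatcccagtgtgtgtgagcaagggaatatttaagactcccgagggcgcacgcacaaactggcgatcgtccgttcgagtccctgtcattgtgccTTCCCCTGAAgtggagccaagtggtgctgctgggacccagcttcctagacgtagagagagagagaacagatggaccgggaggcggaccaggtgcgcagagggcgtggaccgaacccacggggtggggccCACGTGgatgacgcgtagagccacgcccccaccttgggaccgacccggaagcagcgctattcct
Vamp8: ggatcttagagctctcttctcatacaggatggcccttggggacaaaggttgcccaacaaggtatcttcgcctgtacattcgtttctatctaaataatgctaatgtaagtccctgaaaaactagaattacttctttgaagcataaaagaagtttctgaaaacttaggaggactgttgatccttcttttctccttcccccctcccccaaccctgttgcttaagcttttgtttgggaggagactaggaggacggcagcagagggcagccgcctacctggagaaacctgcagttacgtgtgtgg
The Stxbp2 window had 22 CG dinucleotides and a GC content of 61.3%, and the Vamp8 window had 5 and 46.7%, against a median of 7 CG over all promoters. Promoter windows were found for 7 of the 10 genes (not for Snap25, Vamp7 and Unc13d). The Sp1-type box GGGCGG occurred in windows of Stx4a, Stx11 and Rph3a and in 35.7% of all promoters. A TATAAA box occurred in that of Stx3 and in 13.6% of all. The AP-1 motif TGACTCA, present in 5.20% of all promoters, occurred in none of these windows. A motif match is a description of the letters and not of binding.

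Unc13d (Munc13-4), the priming factor of cytotoxic and mast cell granules, had 1211 (normal) and 1488 (OVA-induced) counts in WT and 1002 and 1466 in Rab44-KO lungs. Both OVA-induced libraries lay above the normal ones. Its OVA response was 0.28 (0.17 to 0.40) in WT and 0.45 (0.34 to 0.57) in Rab44-KO, the highest of the 8 widely expressed genes in that genotype. Rab44-KO over WT gave -0.20 (-0.32 to -0.078) in normal and -0.031 (-0.14 to 0.074) in OVA-induced lungs, and the latter was 0.29 with TPM.

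**Figure D2:**
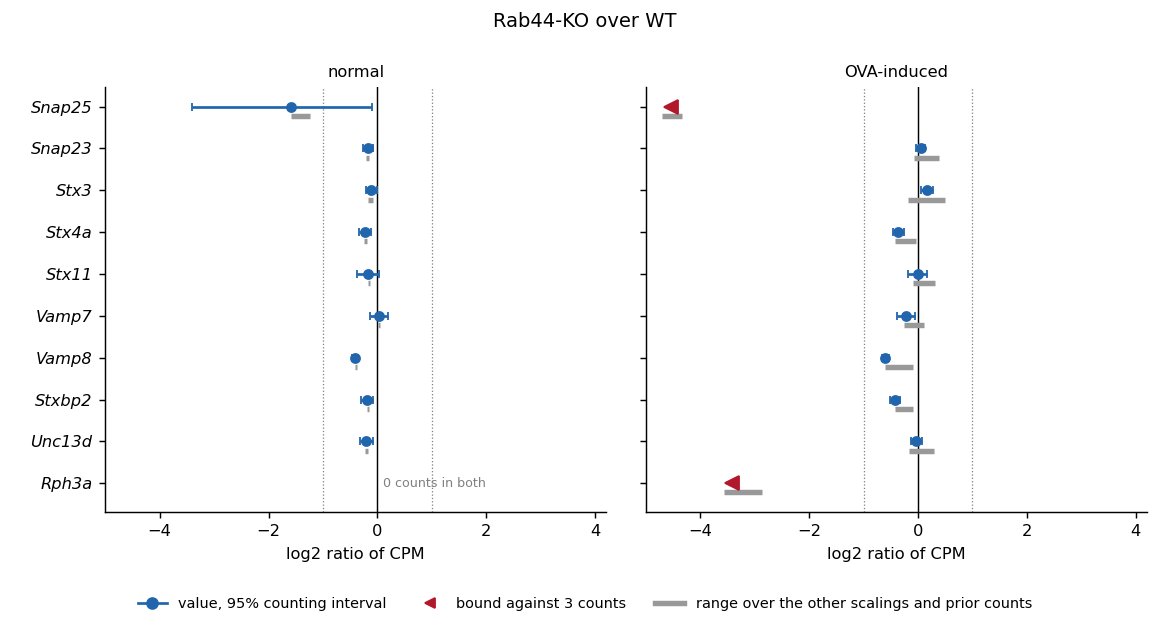
Log2 ratio of CPM of Rab44-KO over WT for each gene in normal (left) and OVA-induced (right) lungs, with exact 95% counting intervals, red arrowheads for bounds against 3 counts, grey bars for the range over the other scalings and prior counts, and dotted lines at 2-fold. In normal lungs 7 of the 8 widely expressed genes lie below 0 with narrow ranges, whereas in OVA-induced lungs the grey bars of Snap23, Stx3, Stx11, Vamp7 and Unc13d cross 0.

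The 8 widely expressed genes were then counted as a group. In normal lungs 7 of 8 were lower in Rab44-KO than in WT, and the interval of 6 lay wholly below 0, where 14.8% of all genes had such an interval. Their median log2FC was -0.18, and the median of all genes was 0.0043. Their summed level was 778 CPM in WT and 652 CPM in Rab44-KO. Under OVA-induced conditions the median was -0.12 with 6 of 8 lower and 4 intervals wholly below 0, against 33.8% of all genes and a median of -0.024, and the summed level was 842 and 694 CPM. With TPM the median of the 8 genes was 0.20 and that of all genes 0.29, so the median of the 8 lay below that of all genes under both scalings, although Stx3, Snap23 and Stx11 lay above it with both and Unc13d with TPM. In normal lungs their median was -0.16 with TPM.

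In WT lungs, OVA induction gave a median log2FC of 0.20 over the 8 genes, with 6 intervals wholly above 0 where 29.2% of all genes had one. In Rab44-KO lungs the median was also 0.20, with 5 intervals above 0 against 25.4% of all genes. The 2 responses share no library. The 7 housekeeping genes had a median response of 0.47 in WT and -0.17 in Rab44-KO, and their part in the values of the 8 genes was not tested. The WT response was highest for Stxbp2 and Unc13d, and the Rab44-KO response for Unc13d, Snap23, Stx11 and Stxbp2. Stx3 lay below 0 in each genotype. With TPM, the median was 0.020 in WT and 0.33 in Rab44-KO, where the medians of all genes were -0.16 and 0.11. The interval of the difference between responses left out 0 for 7 of the 10 genes, and 51.0% of all genes had such an interval, so this was common in these libraries.

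**Figure D3:**
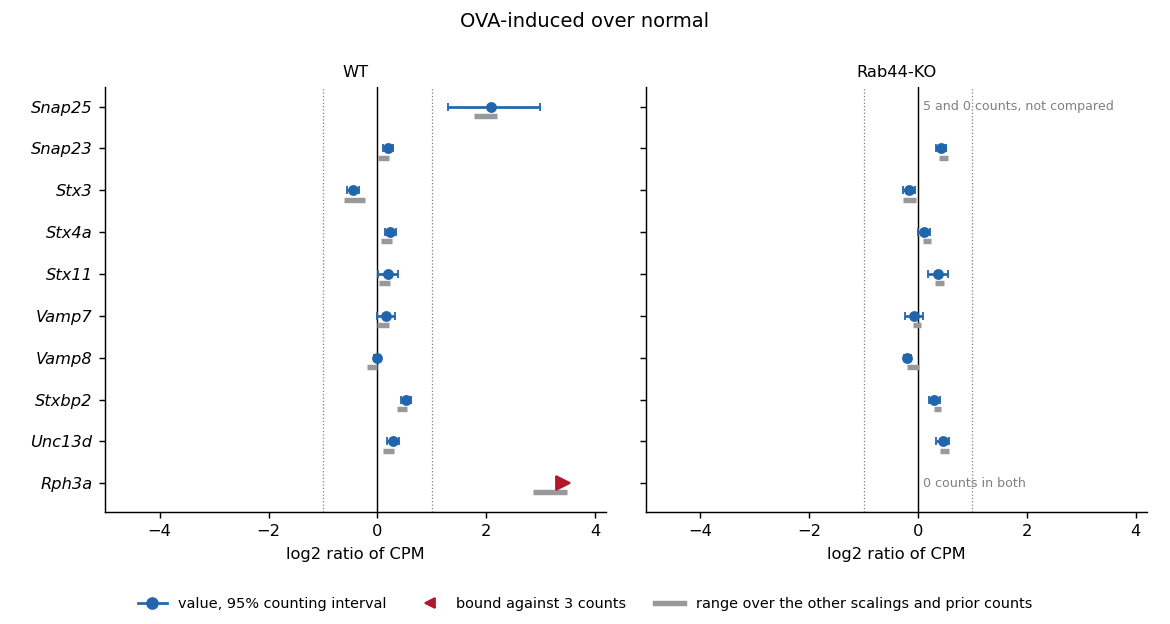
Log2 ratio of CPM of OVA-induced over normal lungs for each gene in WT (left) and Rab44-KO (right), with exact 95% counting intervals, red arrowheads for bounds against 3 counts, grey bars for the range over the other scalings and prior counts, and dotted lines at 2-fold. Snap25 and Rph3a lie beyond 2-fold in WT and could not be compared in Rab44-KO lungs, and the other 8 genes lie between -0.44 and 0.53 in both genotypes.

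Shares within each SNARE class do not depend on the scaling between libraries, since every gene of a library is multiplied by the same factor, although a trend with gene length can still move them. Vamp8 held 59.0% (normal) and 59.6% (OVA-induced) of the summed TPM of 9 R-SNAREs in WT, and 53.8% and 54.9% in Rab44-KO lungs. Its share was lower in both Rab44-KO libraries than in either WT library. Vamp2, the R-SNARE of synapses, stood behind it with at most 12.4%, near the ubiquitous Vamp3 with at most 12.6%. Snap23 held 45.3% (normal) and 45.4% (OVA-induced) of the SNAP family in WT, and 39.5% and 52.2% in Rab44-KO. Its share was lowest in normal and highest in OVA-induced Rab44-KO lungs. Snap25 reached 2.35% of the SNAP family in OVA-induced WT lungs, 0.628% and 0.204% in the normal WT and Rab44-KO libraries, and 0 in the last. Even at its highest it was a small part of the SNAP-family message.

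**Figure D4:**
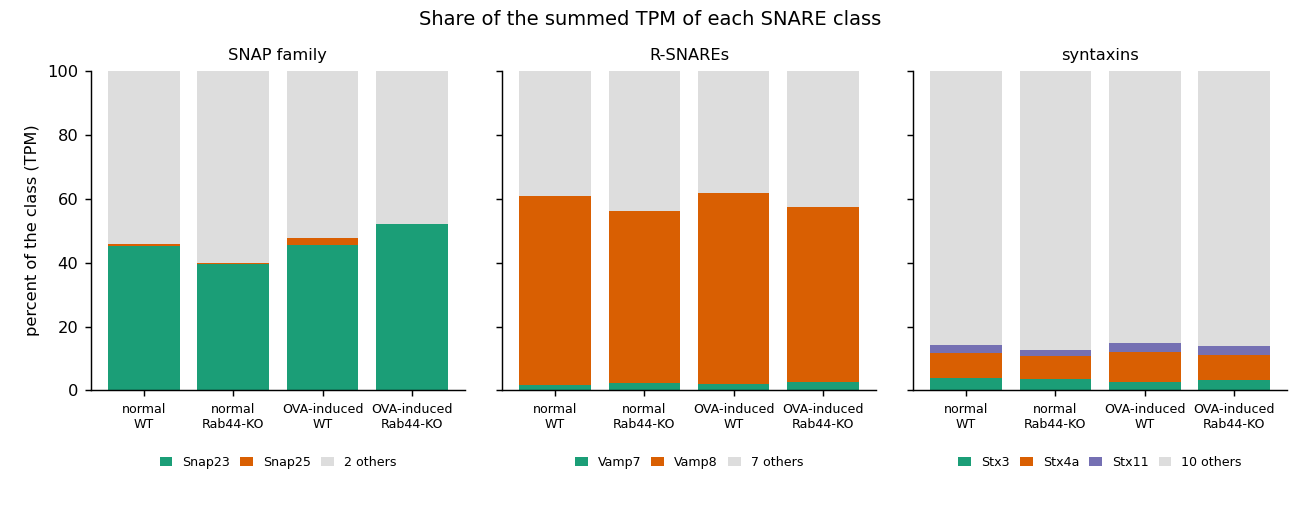
Percent of the summed TPM of the SNAP family (4 genes), R-SNAREs (9 genes) and syntaxins (13 genes) held by each gene of the set (colours) and by the other genes of the class (grey), 1 bar per library. Vamp8 holds 59.0% and 59.6% of the R-SNARE message in WT against 53.8% and 54.9% in Rab44-KO lungs, and Snap25 is visible as a thin band in OVA-induced WT lungs.

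Stxbp2 held 20.9% of the message of 8 Sec1/Munc18 proteins in normal and 27.5% in OVA-induced WT lungs, and 19.2% and 22.6% in Rab44-KO. It was second to Stxbp3 (Munc18c) in every library and came closest to it in OVA-induced WT lungs. Unc13d was the leading gene of 7 Munc13 and CAPS priming factors, with 48.7% (normal) and 59.8% (OVA-induced) in WT and 44.7% and 54.0% in Rab44-KO lungs. Its share was higher in the OVA-induced library of each genotype. Of 13 syntaxins, the endosomal Stx7 led with at least 26.7%. Stx4a held 7.10% to 9.38%, Stx3 2.71% to 3.76% and Stx11 2.12% to 2.79%.

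The rest of the exocytosis machinery was followed by role. No gene of the R-SNAREs, the 10 Qb and Qc SNAREs of internal membranes, the Sec1/Munc18 proteins or the 9 exocyst subunits passed 2-fold in any of the 4 comparisons. Between 4.77% and 15.7% of all genes did so, depending on the comparison. Under OVA-induced conditions 8 of 9 R-SNAREs had intervals wholly below 0, against 33.8% of all genes, with a median log2FC of -0.37, so Vamp8 was not alone in its direction. This median was -0.043 with TPM and -0.039 with the length trend removed. In the same comparison Stxbp4, a syntaxin-binding protein, went from 189 counts in WT to 394 (1.05, 0.80 to 1.31), and Myrip, which links Rab27 to myosin, from 299 to 734 (1.29, 1.09 to 1.48).

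The calcium sensors of release, the synaptotagmins, were counted with Doc2 proteins and complexins. Of 19 genes compared under OVA-induced conditions, 4 were more than 2-fold lower in Rab44-KO, namely Syt1, Syt13, Syt12 and Syt2, and 2 were higher. Over all genes, 7.34% were lower and 15.7% beyond 2-fold in either direction. The interval of Syt2 reached above 0. Syt13 had 2 (normal) and 69 (OVA-induced) counts in WT and 6 and 18 in Rab44-KO lungs. Syt1, the sensor of synaptic vesicles, had 17 and 42 counts in WT and 15 and 5 in Rab44-KO. Both were highest in the OVA-induced WT library, like Snap25. Syt9 lay in the opposite direction, with 8 WT and 25 Rab44-KO counts after OVA, a log2FC of 1.62 (0.44 to 2.99). The list as a whole had a median log2FC of 0.054, near that of all genes.

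Of the priming factors, Cadps, a protein of dense-core vesicle release, had 1 (normal) and 10 (OVA-induced) counts in WT and 4 and 2 in Rab44-KO lungs. The genotypes differed by a log2FC of -2.26 (-5.56 to -0.10) after OVA, so its size was poorly determined. Unc13a, the Munc13 of synapses, had 11 (normal) and 25 (OVA-induced) counts in WT and 6 and 16 in Rab44-KO lungs. Rims3, a presynaptic scaffold protein, had 47 (normal) and 112 (OVA-induced) counts in WT (log2FC 1.24, 0.74 to 1.76) and 58 and 109 in Rab44-KO (0.81, 0.34 to 1.30). Among Rab3 and Rab27 effectors, Sytl5 was lower in the OVA-induced library of each genotype, with 100 and 40 counts in WT and 128 and 61 in Rab44-KO. In normal lungs Rims2 (44 and 19 counts) and Rims1 (11 and 5 counts) were more than 2-fold lower in Rab44-KO, and the interval of Rims1 included 0. After OVA, Rims2 had 29 counts in WT and 44 in Rab44-KO, with an interval of -0.12 to 1.32.

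**Figure D5:**
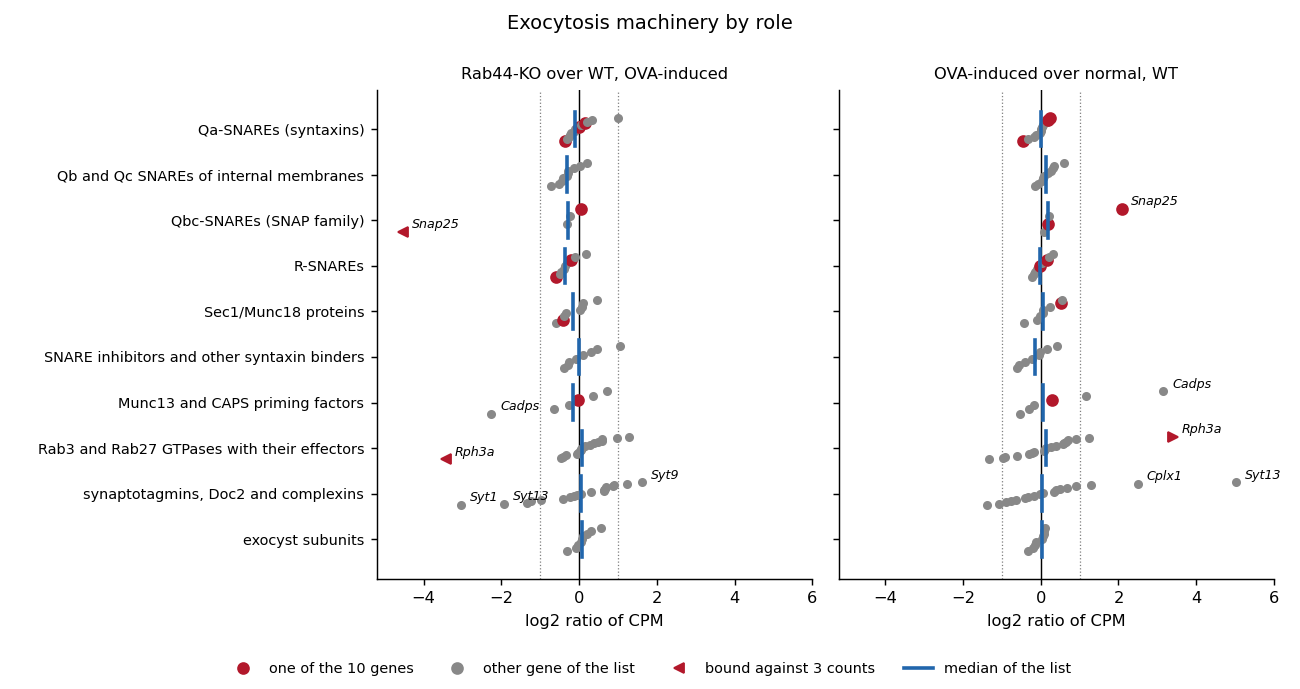
Log2 ratio of CPM for each gene of 10 role lists of the exocytosis machinery, for Rab44-KO over WT in OVA-induced lungs (left) and OVA-induced over normal lungs in WT (right), with the 10 genes of the set in red, arrowheads for bounds against 3 counts, blue bars for list medians and dotted lines at 2-fold. The values beyond 1.5 carry gene names and belong to genes with few counts, such as Snap25, Rph3a, Syt1, Syt13 and Cadps, while the list medians stay within 0.37 of 0.

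The 0 counts of Snap25 and Rph3a in OVA-induced Rab44-KO lungs were set beside all other genes. Rph3a was also at 0 in both normal libraries. Of 15865 genes with at least 30 counts in OVA-induced WT lungs, 6 had 0 counts in OVA-induced Rab44-KO lungs, namely Rab44 (810 counts in WT), Mrgprg (115), Snap25 (69), Gm36598 (59), Ighv1-84 (33) and Rph3a (32). Mrgprg encodes a G protein-coupled receptor and Ighv1-84 an immunoglobulin heavy variable segment. In the opposite direction 0 genes had at least 30 counts in Rab44-KO and 0 in WT, and in normal lungs 0 genes did so in either direction. Snap25 and Rph3a thus belonged to a short list that the count threshold defines, together with the deleted gene.

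Genes whose pattern over the 4 libraries was most like that of Snap25 and Rph3a were ranked by the distance between centred log2 CPM with a prior count of 2, among 16808 genes. Libraries with 0 counts enter at a value set by that prior count, so the order is a description under this setting alone. Nearest to Snap25 was Slc39a2, a zinc transporter, with 79 (normal) and 440 (OVA-induced) counts in WT and 47 and 15 in Rab44-KO lungs (distance 0.65). It was followed by Gm32738, Cdca5, A130071D04Rik and Tff2, the last a trefoil factor secreted with mucus, at distances of 1.32 to 1.52. Nearest to Rph3a was Mmp12, the macrophage metalloelastase, with 101 and 2153 counts in WT and 100 and 126 in Rab44-KO (distance 0.27). Muc5ac, the inducible airway mucin, Tnfrsf9, Scin and Ighv1-84 came next, at 0.43 to 0.49. Rph3a stood in place 53 for Snap25, and Snap25 in place 326 for Rph3a.

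Annotation terms in the deposited table gave a wider view. The term exocytosis is attached to 129 genes and to 9 of the 10 in the set, all but Vamp8. Under OVA-induced conditions 116 of the 129 could be compared, and 9 were more than 2-fold lower and 2 higher in Rab44-KO than in WT, with a median log2FC of -0.044, against 7.34% of all genes lower. Between normal and OVA-induced WT lungs 14 of 116 were higher and 2 lower, against 8.99% of all genes higher. The term SNARE complex is attached to 47 genes, 7 of them in the set. Under OVA-induced conditions 1 gene (Snap25) was lower and 2 higher among 43 compared, against 15.7% of all genes beyond 2-fold in either direction. Mast cell degranulation, which covers 23 genes and none of the set, had 7 of 15 compared genes more than 2-fold lower and none higher, against 7.34% of all genes lower, with a median of -0.87. Terms shared by the set covered both synaptic and immune granules, with neutrophil degranulation given for Stx11, Vamp7 and Stxbp2 and natural killer cell degranulation for Stx11, Vamp7 and Unc13d.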

How the data were processed

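RNA-seq libraries from the lungs of 4 groups of mice were used, 1 library per group, assigned by the labels. The authors sequenced 150-bp paired-end reads from a directional kit, trimmed and aligned them (HISAT2, GRCm38), assigned them to genes with featureCounts and deposited raw counts. The authors also deposited TPM, which were used to compare genes and as an alternative scaling. DESeq2 is named in the submitters' processing notes. Tool versions and the handling of strand and of multi-mapping reads are not given in the sources used here. Gene starts in the table equal those of RefSeq on GRCm38 for 2.12% of 39405 matched genes, so positions are from GENCODE M21 and RefSeq on GRCm38 and no position is given for Vamp7, which lies on an unlocalized scaffold of that build.

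Counts were scaled by TMM over the 4 libraries in edgeR 4.0.16 (R 4.3.3), with factors from 0.973 to 1.02. The log2FC used a prior count of 0.125 and was given where the higher library reached 10 counts. A log2FC beyond 1 was counted as over 2-fold. Intervals are exact 95% Clopper-Pearson (ratios), Poisson (CPM) and conditional odds ratio (difference of responses) intervals, except that the share over all genes for that difference used a Wald interval. Counts of 0 were set to 3 counts for bounds. Between 24316 and 25003 genes had a count in a library, and 1 count was worth 0.0513 to 0.0548 CPM. Python 3.11.15, numpy 2.4.6, pandas 2.3.3, scipy 1.17.1 and matplotlib 3.10.9 were used, and the steps were tested on simulated data. Alternatives were scaling by total counts, by DESeq2 1.42.0 size factors or by TMM from only the compared libraries, TPM with a pseudocount of 0.1, a prior count of 2, count minimums of 1 and 50, a log2FC beyond 2, thinning to the smallest library, and removal of the running median of log2FC along gene length over 501 genes. The members and lists were chosen with earlier results of these data known. Named genes are the members, listed genes beyond 2-fold (at most 5 per list and comparison), genes at 0 in OVA-induced Rab44-KO and at 30 counts or more in OVA-induced WT, the 5 nearest patterns, and marker genes. Vamp2, Vamp3, Stx7 and Stxbp3 fall outside this rule and were named after their values were seen, and not every gene inside it is described. A gene inside the rule is not reported here.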

Additional observations from a re-analysis of the deposited data

Results flagged for a closer look

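Stx3 was drawn out because its log2FC of Rab44-KO over WT took opposite signs in the 2 conditions, -0.11 in normal and 0.16 in OVA-induced lungs. Each value comes from 1 library per group, so this difference between conditions was not tested against the spread between mice. The OVA-induced value was 0.49 with TPM, which kept the opposite signs, and -0.19 with the trend of log2FC with gene length removed, where the signs no longer differed.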

How the results depend on the processing

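No paired analysis was possible because each group had 1 library. For the same reason no replicate could be left out, and an additive model with genotype and condition, which leaves 1 residual degree of freedom, was not run. The directions of Snap25 and Rph3a were kept under every alternative scaling. Snap25 ranged from -1.59 to -1.24 in normal lungs and its WT OVA response from 1.77 to 2.19, while its bound under OVA-induced conditions ranged from -4.70 to -4.34 and that of Rph3a from -3.56 to -2.86. Of these ends, -4.70 and -2.86 come from TPM. They are ratios with the pseudocount of 0.1 and not bounds against 3 counts. Among genes with at least 50 counts in both libraries, TPM shifted log2FC of Rab44-KO over WT by a median of 0.027 in normal and 0.33 in OVA-induced lungs, and OVA responses by -0.17 in WT and 0.12 in Rab44-KO. Under OVA-induced conditions TPM put 2602 genes higher and 777 lower, against 1617 and 1413. Stx11 and Unc13d had values near 0 under OVA-induced conditions and became 0.062 and 0.035 with total counts only. For the difference of OVA responses, TPM gave 0.17 for Stx4a, 0.061 for Vamp7, 0.11 for Vamp8 and 0.070 for Stxbp2, all negative with TMM, which follows the shift of all genes.

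A minimum of 50 counts left 0 genes of the set beyond 2-fold in the normal comparison, 1 in the OVA-induced comparison and 1 in the WT OVA response, since Snap25 or Rph3a was then not compared. A log2FC beyond 2 left 0 in the normal comparison, and a minimum of 1 count added 1 to the OVA response of Rab44-KO (Snap25, 5 and 0 counts, which passes 2-fold with the prior count but is at least 1.78-fold lower against the floor of 3 counts). Over all genes, the normal comparison held 893 genes beyond 2-fold, and 5589, 101 and 180 with a minimum of 1, a minimum of 50 and a log2FC beyond 2. The OVA-induced comparison held 3030, and 7956, 1545 and 763 under the same settings. The OVA response held 2699 in WT (7544, 1350 and 864) and 1963 in Rab44-KO (7073, 763 and 500). List medians under OVA-induced conditions moved with TPM to 0.23 for syntaxins, 0.023 for Qb and Qc SNAREs, -0.043 for R-SNAREs and 0.39 for exocyst subunits, and with the length trend removed to -0.039 for R-SNAREs and -0.15 for exocyst subunits. With TPM the SNAP family median was 0.023 in the WT OVA response and that of exocyst subunits 0.16 in the Rab44-KO response. Snap25 and Rph3a rest on few counts, and the lack of replicates limits every difference.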
